A study of Mus musculus with 9 samples.

Results

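The 10 genes described here encode the subunits of the transcription factor NF-kB and proteins grouped here as its feedback inhibitors. They were taken by gene name from a table of 55385 genes measured by RNA sequencing. All 10 were found, each on 1 row, in 2 sets: 5 subunit genes (Nfkb1, Nfkb2, Rela, Relb and Rel) and 5 genes grouped as inhibitors (Nfkbia, Nfkbib, Nfkbie, Tnfaip3 and Birc3). The name inhibitor is that of the set, and inhibition was not measured. The cells were MCP5, a mouse podocyte line that the labels give as wild type, in 9 libraries. The 3 control libraries came from cells labelled as blank, 3 came from cells given high glucose at 50 mmol/L, and 3 from cells given AGEs at 400 µg/mL. AGEs are advanced glycation end products, which form when sugars react with proteins. All groups share the 1 line, and no treatment time, osmotic control or carrier protein control was analysed here. The design text asks which genes differ among these 3 groups.

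NF-kB factors are dimers built from 5 related proteins. In resting cells the IkB proteins bind the dimers and keep them in the cytoplasm, and receptors for cytokines or microbial products release them through a kinase complex that marks IkB for destruction. Dimers that reach the nucleus switch on inflammatory genes and also the genes of their own inhibitors, which ends the response. A second route, called noncanonical, works through the kinase NIK and through cutting of the Nfkb2 product to free dimers with RelB. In the kidney the pathway is studied as a source of chemokines and cytokines in glomerular injury, and the receptor for AGEs, RAGE, is known to signal to it.

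RefSeq sequences of the 250 bases before the start (build GRCm38.p6) were used for 8 of the 10 genes, since the table of sequences had no entry for Nfkb1 and Relb. One form of the NF-kB binding motif, GGG followed by any 3 bases and then TTCC, was searched on both strands, and 8 of the 11 windows of these genes, which belong to 5 genes, held a match. Some windows of 1 gene lie close together or overlap. Over all 32851 windows of the same length, 4.65% held one. The motif was chosen with the results known, the matches are a description of the letters, and binding was not measured. The windows of Nfkbia and Nfkbie, the inhibitor genes that rose in high glucose, are shown whole, and for Nfkb2, Rel and Tnfaip3 a stretch of 30 bases around a match is shown, from a window that crosses an annotated exon. Capitals mark the match, and the sequences run 5′ to 3′ on the strand of the gene.
Nfkbia, chr12:55492648-55492897, minus strand: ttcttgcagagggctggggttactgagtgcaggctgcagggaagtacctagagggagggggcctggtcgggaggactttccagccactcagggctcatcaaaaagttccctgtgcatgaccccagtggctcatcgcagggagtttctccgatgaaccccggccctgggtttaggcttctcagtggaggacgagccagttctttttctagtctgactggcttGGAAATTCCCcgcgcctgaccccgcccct
Nfkbie, chr17:45555450-45555699, plus strand: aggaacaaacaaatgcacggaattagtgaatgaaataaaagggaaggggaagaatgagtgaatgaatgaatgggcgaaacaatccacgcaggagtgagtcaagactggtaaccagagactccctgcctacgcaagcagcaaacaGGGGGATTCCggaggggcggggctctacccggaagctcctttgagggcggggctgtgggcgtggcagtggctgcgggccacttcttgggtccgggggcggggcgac
Nfkb2, chr19:46304689-46304718, plus strand: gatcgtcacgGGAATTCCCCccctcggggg
Rel, chr11:23771041-23771070, minus strand: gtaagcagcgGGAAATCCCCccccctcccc
Tnfaip3, chr10:19015411-19015440, minus strand: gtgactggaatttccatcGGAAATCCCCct
The match of Nfkbia lay 29 to 20 bases before the start and read on the opposite strand, and that of Nfkbie lay 106 to 97 bases before it. The windows of Rela, Nfkbib and Birc3 held no match, which says only that these letters are not in these windows. Of the genes with a match, Nfkbia and Nfkbie were higher in high glucose, Nfkb2 was lower, and Rel and Tnfaip3 did not pass the test, as the values below give in full.

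Total counts ranged from 46284878 to 77242281 per library, lowest in high glucose library 2, and the 10 genes together took 30546 to 48398 counts in a library. The high glucose libraries stood apart from the others on the first principal component (41.0% of the variance), and AGEs library 3 stood apart on the second (82.8, against −46.2 and −23.1 for AGEs libraries 1 and 2). Nothing in the labels says that the libraries of a group came from separate cultures, so the p-values reflect the spread among the libraries alone, and this spread may be technical. Of 12 podocyte markers 8 passed the filter on low counts. Wt1, a podocyte transcription factor, had 0 counts in control and AGEs and 11 over the high glucose libraries.

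In control cells the 10 mRNAs differed widely in level. On the deposited FPKM scale, which accounts for transcript length, Rela, the gene of the transactivating subunit p65, was the most abundant at 39.3 ± 4.95 (mean ± SD, n = 3). It was followed by Nfkb2, whose product p100 is cut to p52, at 25.2 ± 1.5 and by Nfkbib, the gene of IkB-beta, at 19.3 ± 1.85 FPKM. Nfkbia, the gene of IkB-alpha, had 10.5 ± 0.23 FPKM and Relb, the usual partner of p52, had 9.71 ± 0.72 FPKM, and the libraries of these neighbours overlapped. Nfkb1, whose product p105 gives p50, stood at 6.59 ± 0.24 FPKM. Birc3, which encodes the ubiquitin ligase cIAP2, was at 2.75 ± 0.47 and Nfkbie, the gene of IkB-epsilon, at 2.56 ± 0.60 FPKM, again with overlap between the neighbours. Tnfaip3, the gene of the ubiquitin-editing enzyme A20, was at 1.65 ± 0.08 FPKM, and Rel, which encodes the c-Rel subunit best known from lymphocytes, was lowest at 1.29 ± 0.26 FPKM. The other neighbours in this order had ranges that did not overlap. In high glucose the order changed: Nfkbia moved from place 4 to place 2 with 28.7 ± 1.32 FPKM, above Nfkb2 at 21.9 ± 2.30 FPKM. In AGEs Rela, Nfkb2 and Nfkbib kept the first 3 places, at 40.3 ± 2.99, 29.9 ± 3.35 and 19.7 ± 1.35 FPKM.

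**Figure D1:**
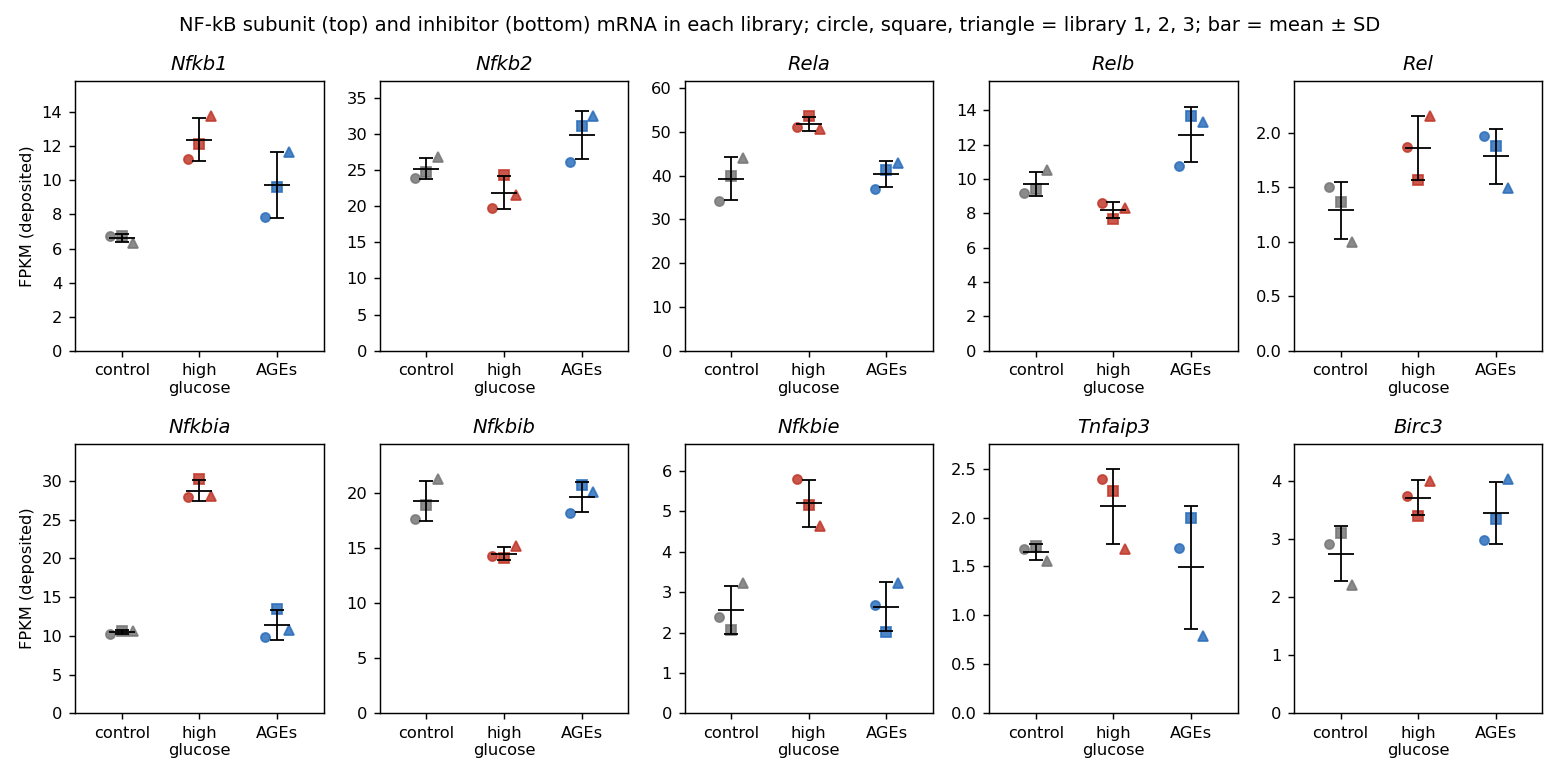
Deposited FPKM (y axis, linear from 0, a scale of its own in each panel) of the 5 subunit genes (top) and 5 inhibitor genes (bottom) in control, high glucose and AGEs. Each symbol is 1 library, the bar is the mean and the whiskers 1 SD. The 3 high glucose libraries of Nfkbia lie between 27.9 and 30.3 FPKM, and the 6 others between 9.87 and 13.5.

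High glucose was compared with control first. The inhibitor genes Nfkbia and Nfkbie and the subunit gene Nfkb1 rose, while the subunit genes Nfkb2 and Relb and the inhibitor gene Nfkbib fell. By edgeR's quasi-likelihood test over all genes, with Benjamini-Hochberg adjustment, 6 of the 10 were called at an adjusted p under 0.05. The background was high: 39.3% of the 17680 genes tested were called, 19.6% higher and 19.7% lower, against 3 members higher and 3 lower here. The groups did not overlap for 4 members that were higher and 3 that were lower, against 28.3% and 25.8% of all genes. The counts alone therefore do not mark the set, and the members are described 1 by 1. Their median log2 fold change was 0.24, and that of all genes was 0.03.

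Among the inhibitors, Nfkbia had 19.2, 19.7 and 19.9 CPM (library-size-scaled counts, with TMM factors) in control and 46.7, 49.5 and 45.8 CPM in high glucose. Every high glucose library was above every control library by a wide margin. Nfkbia, the classic feedback inhibitor, was 2.42-fold higher (log2 fold change 1.27, SE 0.12, adjusted p = 4.58e-05, edgeR). Nfkbie, a slower feedback inhibitor, had 8.50, 7.24 and 11.4 CPM in control and 18.4, 16.0 and 14.3 CPM in high glucose. Its groups did not overlap, although control library 3 came near to high glucose library 3. Nfkbie was 1.80-fold higher (log2 fold change 0.84, SE 0.22, adjusted p = 0.0129). Nfkbib, whose product is not known as a fast feedback inhibitor, went the other way, from 44.4, 47.1 and 53.6 CPM to 32.2, 31.0 and 33.3 CPM. All 3 high glucose libraries were lower than all 3 controls, and the gene was 1.5-fold lower (adjusted p = 0.00118, log2 fold change −0.59, SE 0.10). Within each library the FPKM of Nfkbia was 0.500 to 0.582 times that of Nfkbib in control and 1.85 to 2.15 times that in high glucose. Such a ratio does not depend on the scaling between libraries.

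The remaining pair of inhibitors did not pass. Tnfaip3, which removes activating ubiquitin chains, had 14.1, 14.2 and 13.1 CPM in control and 18.0, 16.7 and 12.3 CPM in high glucose. High glucose library 3 lay below all controls and the other two above them (log2 fold change 0.19, 95% interval −0.46 to 0.83, adjusted p = 0.654). Birc3 had 17.0, 17.9 and 12.9 CPM in control and 19.5, 17.4 and 20.4 CPM in high glucose, with overlapping groups. Its log2 fold change was 0.26 (95% interval −0.10 to 0.63, adjusted p = 0.242). The interval of Tnfaip3 includes the log2 fold change of Nfkb1, 0.73, and that of Birc3 ends below it.

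Among the subunits, Nfkb1 had 94.6, 92.7 and 88.5 CPM in control and 141, 149 and 168 CPM in high glucose. The groups were well apart, and Nfkb1 was 1.66-fold higher (log2 fold change 0.73, SE 0.14, adjusted p = 0.0026). Nfkb2, its closest relative, had 128, 130 and 143 CPM in control and 94.3, 113 and 100.02 CPM in high glucose. All high glucose libraries were lower, and Nfkb2 was 1.30-fold lower (adjusted p = 0.0184, log2 fold change −0.38, SE 0.11). Relb fell beside it, from 41.5, 41.9 and 47.5 CPM to 34.8, 30.3 and 32.9 CPM, which was 1.34-fold lower (adjusted p = 0.0173, log2 fold change −0.42, SE 0.12). The falls of Nfkb2 and Relb rest on the scaling: with total counts only they were −0.20 and −0.24 (adjusted p = 0.157 and 0.114), and with limma on log2(FPKM + 1) −0.20 and −0.22 (adjusted p = 0.144 and 0.108). The call of Nfkb2 was also lost without control library 3 (adjusted p = 0.0606), high glucose library 1 (0.0684) or high glucose library 3 (0.0571), and that of Relb without control library 3 (0.0623) or high glucose library 2 (0.0653). Scaling by total counts moved the median of all genes to 0.21 and the share of calls that were higher from 49.9% to 67.8%, and in AGEs against high glucose from 49.4% to 30.6%. Of the 10 members it called 5 higher and 1 lower in high glucose.

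Rela had 122, 140 and 157 CPM in control and 164, 167 and 158 CPM in high glucose. High glucose library 3 was barely above control library 3, and the gene did not pass (log2 fold change 0.22, SE 0.10, adjusted p = 0.112). With total counts only it was called higher (log2 fold change 0.40, adjusted p = 0.00908), as with limma on log2(FPKM + 1) (0.40, adjusted p = 0.00862) and without control library 3 (0.31, adjusted p = 0.0385). Rel, at 13.0, 11.7 and 8.65 CPM in control and 14.5, 11.9 and 16.3 CPM in high glucose, overlapped and did not pass (log2 fold change 0.36, adjusted p = 0.155), and was called higher with total counts only (0.54, adjusted p = 0.0465).

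**Figure D2:**
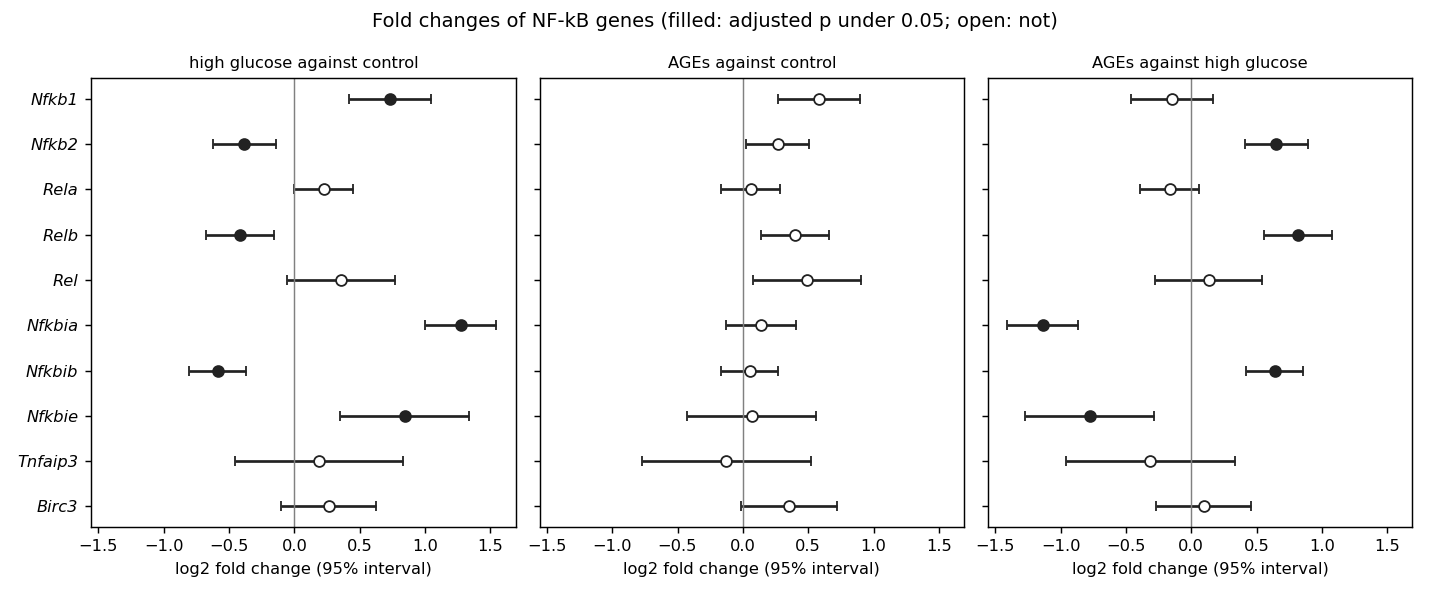
Log2 fold changes (x axis) of the 10 genes from the edgeR fit in the 3 comparisons, with 95% intervals, filled where the adjusted p was under 0.05. In high glucose against control Nfkbia stands farthest to the right at 1.27, Nfkbib farthest to the left at −0.59, and in AGEs against control no point is filled.

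Ratios within a library gave the shift among subunits without any scaling. The FPKM of Nfkb1 was 0.235 to 0.282 times that of Nfkb2 in control and 0.500 to 0.640 times in high glucose. The FPKM of Rela was 3.71 to 4.24 times that of Relb in control and 5.96 to 6.99 times in high glucose. Of the summed FPKM of the 5 subunits, Rela took 47.8 ± 2.30% in control and 53.9 ± 1.34% in high glucose, and Nfkb2 took 30.7 ± 0.86% and 22.7 ± 1.62%. The 3 IkB genes together had 0.394 ± 0.0079 times the FPKM of the 5 subunits in control and 0.504 ± 0.0116 times in high glucose. Within the IkB sum the share of Nfkbia went from 32.6 ± 2.02% to 59.3 ± 1.59%, and that of Nfkbib from 59.5 ± 1.20% to 29.95 ± 1.61%. None of the ranges of these measures overlapped between control and high glucose. For each of them an exact two-sided permutation test of 3 libraries against 3 gives p = 0.1, the smallest it can give, so none could pass 0.05. These measures were chosen with the results known.

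**Figure D3:**
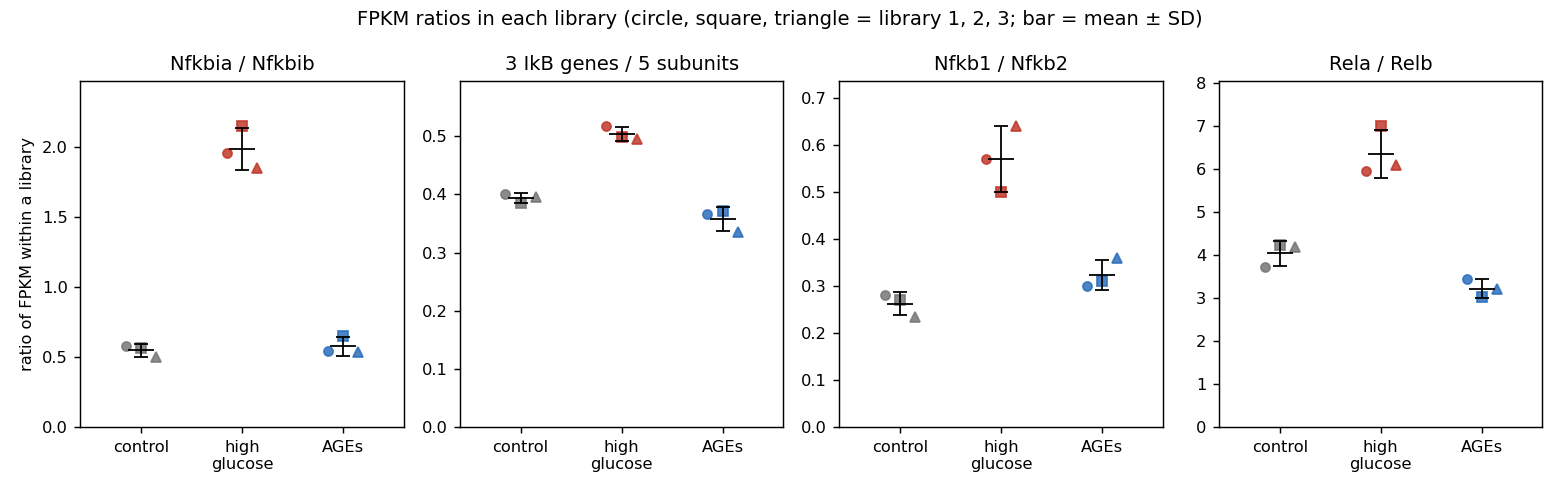
FPKM ratios within each library (y axis, linear from 0), with the mean and 1 SD, for Nfkbia to Nfkbib, the 3 IkB genes to the 5 subunits, Nfkb1 to Nfkb2, and Rela to Relb. The high glucose libraries are above the control libraries in all 4 panels, and the AGEs libraries lie below control for Rela to Relb (3.02 to 3.44).

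The comparison of AGEs with control used the same control libraries. None of the 10 genes was called by edgeR, where 0.0848% of all genes (15 of 17680) were called, so the test called almost nothing in this comparison. At an unadjusted p under 0.05 there were 4 members, Nfkb1, Nfkb2, Relb and Rel, all of them subunit genes and all with higher means in AGEs. Of all genes 12.4% had such a p, 6.46% with a higher mean in AGEs. DESeq2 called 1 of the 10, which was higher, against 1.84% of all genes in either direction and 1.11% higher, and limma on either FPKM scale called 0. The groups did not overlap for 3 members that were higher (Nfkb1, Relb and Rel) and 0 that were lower, against 9.47% and 9.73% of all genes.

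Nfkb1 had 110, 136 and 168 CPM in AGEs, all above the controls but spread widely, with AGEs library 3 the highest. The log2 fold change was 0.58 (SE 0.14, 95% interval 0.27 to 0.90, adjusted p = 0.233 by edgeR and 0.0125 by DESeq2). Without AGEs library 3, which stood apart over all genes, it was 0.42 (adjusted p = 0.306). Relb had 48.5, 61.9 and 61.9 CPM in AGEs, where AGEs library 1 was just above control library 3. Its log2 fold change was 0.40 (95% interval 0.14 to 0.66, adjusted p = 0.285). Rel had 17.1, 16.4 and 13.3 CPM in AGEs, the lowest of them close to the highest control (log2 fold change 0.49, 95% interval 0.08 to 0.90, adjusted p = 0.355). Nfkb2 had 139, 166 and 178 CPM in AGEs and overlapped control through AGEs library 1 (log2 fold change 0.27, 95% interval 0.03 to 0.51, adjusted p = 0.375). Rela was at 132, 148 and 157 CPM, within or at the edge of the control range (log2 fold change 0.06, 95% interval −0.17 to 0.29, adjusted p = 0.862).

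None of the inhibitor genes had an unadjusted p under 0.05 in AGEs. Nfkbia had 18.4, 25.4 and 20.7 CPM, with AGEs library 2 above and AGEs library 1 below all controls (log2 fold change 0.14, 95% interval −0.13 to 0.40, adjusted p = 0.675). Nfkbib had 45.6, 52.5 and 52.1 CPM and a log2 fold change of 0.05 (95% interval −0.17 to 0.27, adjusted p = 0.878). For Nfkbia and Nfkbib the intervals leave out changes as large as those seen in high glucose. Nfkbie had 9.49, 7.19 and 11.8 CPM, spread as in control (log2 fold change 0.07, 95% interval −0.42 to 0.56, adjusted p = 0.936). Tnfaip3 had 14.2, 16.8 and 6.82 CPM, with AGEs library 3 at the lowest level of any library. Its log2 fold change was −0.13 (95% interval −0.77 to 0.52, adjusted p = 0.901), and 0.17 without AGEs library 3. Birc3 had 17.4, 19.6 and 24.2 CPM, highest in AGEs library 3, with a log2 fold change of 0.36 (95% interval −0.01 to 0.72, adjusted p = 0.413). In the FPKM of a library, the 3 IkB genes had 0.358 ± 0.0202 times the sum of the subunits, below the control libraries without overlap.

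**Figure D4:**
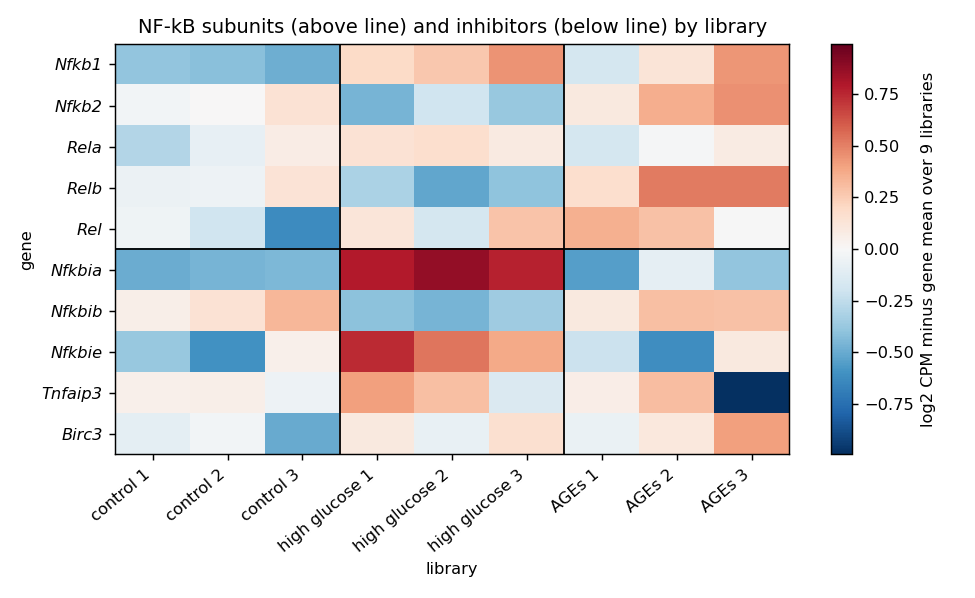
Log2 CPM of each gene in each library minus the mean of that gene over the 9 libraries (colour scale, red above and blue below the mean), with subunits above and inhibitors below the horizontal line. Nfkbia and Nfkbie are red in the 3 high glucose libraries and Nfkb2, Relb and Nfkbib blue, and AGEs library 3 shows the lowest Tnfaip3.

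To test whether the treatments differ from each other, AGEs were compared with high glucose directly. Of the 10 genes 5 were called by edgeR: Nfkb2, Relb and Nfkbib were higher and Nfkbia and Nfkbie lower in AGEs. Over all genes 39.9% were called, 19.7% higher and 20.2% lower. Nfkb2 was 1.57-fold higher in AGEs (log2 fold change 0.65, SE 0.11, adjusted p = 0.00112) and Relb 1.76-fold higher (0.81, SE 0.12, adjusted p = 0.000468). These are the subunits of the noncanonical route, and their ranges did not overlap between the treatments. Nfkbib was 1.56-fold higher in AGEs (log2 fold change 0.64, adjusted p = 0.000705), Nfkbia 2.20-fold lower (−1.14, SE 0.12, adjusted p = 8.18e-05) and Nfkbie 1.71-fold lower (−0.78, SE 0.22, adjusted p = 0.0185). The Nfkbie call was lost without AGEs library 1 (adjusted p = 0.0514), AGEs library 2 (0.0631) or high glucose library 1 (0.0675). Nfkb1, at −0.15 (95% interval −0.46 to 0.16, adjusted p = 0.441), and Rel, at 0.13 (95% interval −0.28 to 0.54, adjusted p = 0.614), did not pass. Rela, at −0.16 (adjusted p = 0.235), was called lower with total counts only (−0.36, adjusted p = 0.0141).

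The wider pathway was described with lists of other members, whose counts refer to the genes that passed the filter on low counts. In high glucose against control 19.6% of all genes tested were called higher and 19.7% lower, so counts near these shares do not mark a list. Of 12 other inhibitors and IkB relatives 11 were tested in high glucose against control, and 5 rose and 2 fell. Bcl3, an IkB relative that works in the nucleus with p50 and p52, was 4.88-fold higher (5.5 ± 0.92 to 26.8 ± 3.41 CPM, adjusted p = 0.000472, edgeR), and the nuclear IkB relative Nfkbiz was 2.79-fold higher (20.8 ± 3.81 to 58.0 ± 4.35 CPM, adjusted p = 0.000699). Cyld, a deubiquitinase that restrains the pathway, was 1.99-fold lower (150 ± 14.5 to 75.5 ± 6.87 CPM, adjusted p = 7.02e-05), and Rnf11, part of the A20 complex, was 1.61-fold lower (adjusted p = 4.19e-05). Of 24 kinases and adaptors 4 rose and 6 fell, but 10 were higher and 2 lower with total counts only, and 8 and 2 with limma on either FPKM scale. Map3k14, the gene of NIK, was 2.73-fold higher (8.64 ± 0.56 to 23.6 ± 1.28 CPM, adjusted p = 3.05e-05), while Nfkb2 and Relb of the same route were lower. Chuk, the gene of the kinase IKK-alpha, was 1.66-fold lower (adjusted p = 0.000385). The adaptor Traf5 and the ubiquitin ligase Birc2, a relative of Birc3, rose 1.65-fold and 1.5-fold (adjusted p = 0.00145 and 0.00108).

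Of 12 receptors 7 rose and 1 fell in high glucose, where 19.6% of all genes were called higher and 19.7% lower. The TNF receptor gene Tnfrsf1b rose 2.48-fold (14 ± 1.08 to 34.7 ± 3.75 CPM, adjusted p = 0.000204), the innate receptor gene Tlr2 rose 1.86-fold (adjusted p = 8.84e-05) and Il1rap, the accessory chain of the interleukin-1 receptor, rose 1.65-fold (adjusted p = 0.00114). Tnfrsf12a, the receptor of TWEAK, was 1.79-fold lower (adjusted p = 7.92e-05). Ager, the gene of RAGE, was low, with 117, 551 and 171 counts over the control, high glucose and AGEs libraries. It was called higher in high glucose (adjusted p = 0.0106, edgeR) and was not called in AGEs against control (adjusted p = 0.744). Only 6 of 11 ligand genes passed the filter, and 3 of them rose. Il33 rose from 0.62 ± 0.08 to 2.73 ± 0.67 CPM (adjusted p = 0.0022), Tnfsf12, the gene of TWEAK, rose 1.69-fold (adjusted p = 0.00291), and Lta rose to 1.76 ± 0.41 CPM (adjusted p = 0.0349). The Lta call was lost with the replicate block (adjusted p = 0.0532) and without any 1 of 5 libraries, control 1 and 2 and high glucose 1, 2 and 3 (adjusted p = 0.0581 to 0.108).

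Of 30 target genes of NF-kB 27 were tested, and 12 rose and 2 fell in high glucose, against 19.6% and 19.7% of all genes. Their median log2 fold change was 1.11, and that of all genes was 0.03. Ccl2, a monocyte chemokine, had 41.6, 40.8 and 33.8 CPM in control and 301, 295 and 301 CPM in high glucose, a 7.71-fold rise (log2 fold change 2.95, SE 0.34, adjusted p = 0.000141, edgeR). Vcam1, a leukocyte adhesion molecule, rose 3.06-fold (adjusted p = 0.000125). Csf3, a cytokine gene, had a total of 16 counts over the control libraries and passed the filter through the treated groups alone. Its log2 fold change of 5.91 (adjusted p = 0.000201) ranged from 2.11 to 6.32 over the alternatives. These include limma on log2(FPKM + 1), where the added 1 shrinks the change of a gene at 0.047 FPKM in control. The range thus mixes unlike measures, and with so few control counts the size is uncertain. Ptgs2, the gene of cyclooxygenase 2, was 2.49-fold lower (adjusted p = 0.000103). In AGEs against control none of the 27 was called by edgeR, 15 had an unadjusted p under 0.05 with a higher mean in AGEs, and DESeq2 called 9, all higher, against the 6.46% and 1.11% of all genes given above. The AGEs libraries were above all controls for 15 of the 27 and below for 0, against 9.47% and 9.73% of all genes. The list was chosen with earlier results of these data known. Its genes were measured in the same libraries and are not separate observations, so these counts are a description only. Ccl2 had 64.2, 168 and 192 CPM in AGEs, lowest in AGEs library 1 (log2 fold change 1.87, adjusted p = 0.120). Csf3 had 0.642, 4.55 and 2.18 CPM in AGEs (log2 fold change 4.85, adjusted p = 0.0623). Without AGEs library 1, the lowest AGEs library for both genes, both were called (adjusted p = 0.000272 for Ccl2 and 0.00469 for Csf3, edgeR). That library was singled out by the values of these same genes. Leaving it out raises their AGEs means, so these calls add no support. Of 28 targets tested then 6 were called, beside 21 of all 18421 genes. Leaving out any other control or AGEs library called 0 to 2 targets, with 0 without AGEs library 3.

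**Figure D5:**
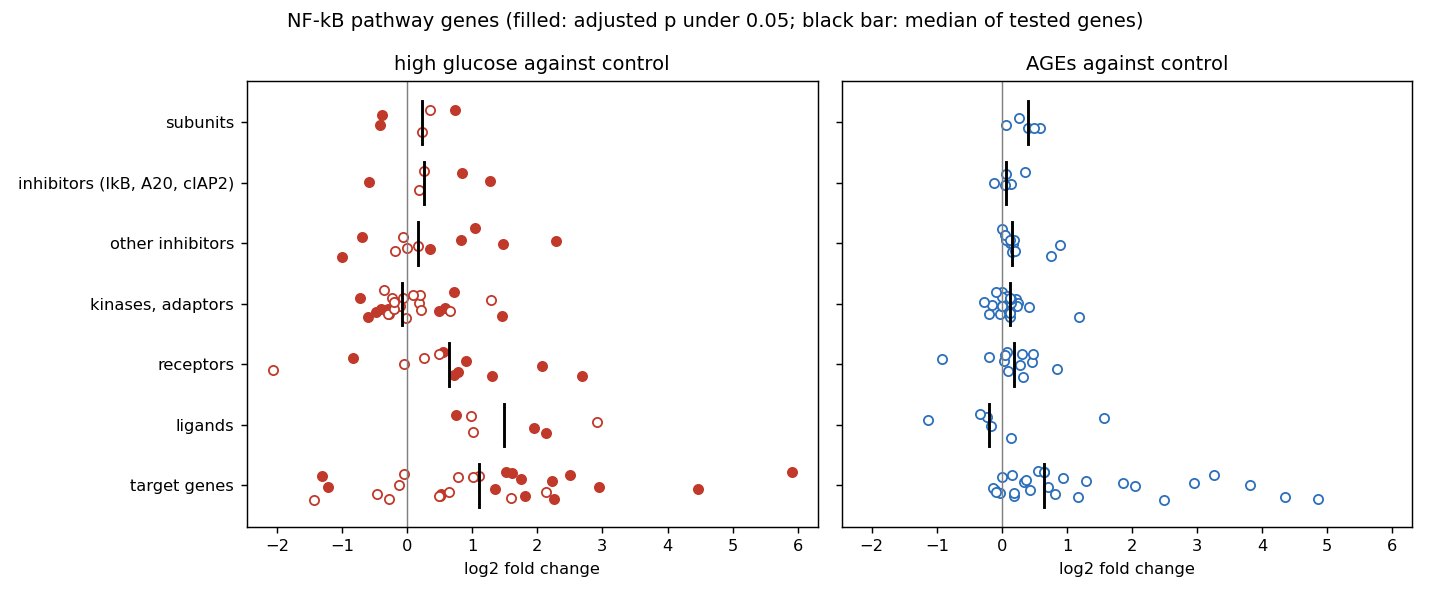
Log2 fold change (x axis) of each tested gene of the NF-kB lists in high glucose (left) and AGEs (right) against the same control libraries; filled points had an adjusted p under 0.05 and black bars are medians. The median of the target genes is 1.11 in high glucose and 0.65 in AGEs, and no point is filled for AGEs.

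The genes whose pattern over the 9 libraries was most like that of Nfkbia were sought among 11348 genes with a mean of at least 1 CPM and an ordinary symbol (no Gm number, Rik, clone or pseudogene name), by the root mean square difference of centred log2 CPM. The nearest were Sertad3 (0.105), Rcor2 (0.111), Cadm4 (0.118), Map3k14 (0.122) and Abr (0.129), with log2 fold changes from 1.13 to 1.45 in high glucose against control. Among the members Nfkbie was nearest to Nfkbia (0.360, place 1502) and Relb farthest (0.873, place 9331). The measure is a description without a test.

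Markers of podocytes and of other cells were also compared between high glucose and control. The counts of markers that rose or fell stand beside 19.6% of all genes called higher and 19.7% lower. In lists this small, counts near these shares do not mark a cell type. No marker list was tested as a set. Of 9 leukocyte markers 8 were tested, 2 rose and 1 fell, and their summed level was 77.7 to 87.3 CPM in control, 133 to 144 CPM in high glucose and 75.6 to 94.0 CPM in AGEs. Cd14 (14.5 ± 0.55 to 54.0 ± 1.44 CPM, adjusted p = 3.56e-05, edgeR) and Csf1r (45.3 ± 4.01 to 75.0 ± 3.84 CPM, adjusted p = 0.00412) rose. Cd68 fell from 21.5 ± 1.65 to 9.39 ± 1.31 CPM (adjusted p = 0.00419). The defining leukocyte gene Ptprc had 28, 201 and 107 counts over the control, high glucose and AGEs libraries, with at most 1.22 CPM in a library. Its high glucose libraries were all above the controls. Ptprc was not called against control in high glucose (adjusted p = 0.170, edgeR) or in AGEs (adjusted p = 0.637). The T cell gene Cd3e had 0, 6 and 0. Of 8 parietal epithelial markers 4 rose and 1 fell (summed 1056 to 1104 CPM in control, 1966 to 2205 CPM in high glucose). Most of this rise was Cd24a (184 ± 14.6 to 1062 ± 75.9 CPM), while Krt18 (503 and 495 CPM) and Pax8 (220 and 236 CPM) were not called. Of 5 tubular markers tested 3 rose (124 to 126 against 357 to 398 CPM), mostly through Cdh16 (98.8 ± 2.46 to 314 ± 13.0 CPM). Aqp2, Slc34a1 and Umod were at 0 counts in all libraries. Of 3 endothelial markers tested 2 rose (5.48 to 5.85 against 12.4 to 15.1 CPM), of 6 mesangial and fibroblast markers 2 rose (38.1 to 41.3 against 55.2 to 60.9 CPM), and of 8 podocyte markers 3 rose. Their part in the results above was not tested, and fewer cells of a type cannot be told apart from less RNA per cell in bulk samples.

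In the coordinates of the deposited table (GRCm38), Nfkb1 (ENSMUSG00000028163) lies at chr3:135584655-135691546, minus strand, and Nfkb2 (ENSMUSG00000025225) at chr19:46304320-46312385, plus strand. Rela (ENSMUSG00000024927) lies at chr19:5637483-5648130, plus strand, Relb (ENSMUSG00000002983) at chr7:19606217-19629438, minus strand, and Rel (ENSMUSG00000020275) at chr11:23736847-23770970, minus strand. Nfkbia (ENSMUSG00000021025) lies at chr12:55489410-55492647, minus strand, Nfkbib (ENSMUSG00000030595) at chr7:28758251-28766640, minus strand, and Nfkbie (ENSMUSG00000023947) at chr17:45555703-45563169, plus strand. Tnfaip3 (ENSMUSG00000019850) lies at chr10:19000910-19015410, minus strand, and Birc3 (ENSMUSG00000032000) at chr9:7848699-7873170, minus strand. All are protein-coding genes. Nfkb2 overlaps Psd by 299 bases and 4833438C02Rik by 1292 bases on the opposite strand, which had 3937 and 2244 counts over all libraries against 79857 for Nfkb2. The counts of both neighbours were higher in every high glucose library (Psd 496 to 913, against 270 to 311 in control). Nfkb1 overlaps Gm43430 on its own strand, with 66 counts against 78419, and Nfkbib overlaps Ccer2, with 0. The strand setting of the counting is not given in the sources used here, so reads of overlapping genes cannot be told apart.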

How the data were processed

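RNA was sequenced from 9 libraries in 3 groups. RNA was taken with TRIzol and copied with SuperScript II, per the labels' protocols. The deposited table holds, per the file headers, a read count (whole number) and an FPKM value (scaled to transcript length and depth) for each gene and library. The submitters' processing notes name cutadapt 1.9, FastQC and the build GRCm38. Which aligner, counter, annotation release or strand setting was used is not given in the sources used here. In the deposited FPKM columns a count of 0 is written as 0.0001.

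Counts were fitted with edgeR 4.0.16 in R 4.3.3 (quasi-likelihood, glmQLFit and glmQLFTest), with TMM scaling (factors 0.935 to 1.10), filterByExpr (17680 genes kept) and 3 group means over all 9 libraries. Tests were two-sided, with Benjamini-Hochberg adjustment over all genes kept and calls at an adjusted p under 0.05. The standard error is the absolute log2 fold change divided by the square root of F. DESeq2 1.42.0 and limma 3.58.1 served as alternatives, with other scalings, filters and left-out libraries. The procedure was tested on simulated data. Replicate libraries differed by more than sampling noise (chi-square per degree of freedom 47.7 to 110). Intervals cover the spread between libraries. The members, lists and motif were chosen with earlier results of these data known. Beside the members, the text names up to 4 called genes of each list with the smallest p in high glucose against control. Ager was named besides, as the gene of RAGE. Markers and genes that overlap a member were named after their values were seen. One marker of the lists is not reported here.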

Additional observations from a re-analysis of the deposited data

How the results depend on the processing

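Each of the 10 genes was refitted under 15 alternatives in each of the 3 comparisons. In high glucose against control no gene changed direction, and Nfkbia, Nfkb1, Nfkbie and Nfkbib stayed called in all 15 (Nfkbia from 1.24 to 1.45, Nfkb1 from 0.66 to 0.91, Nfkbie from 0.71 to 1.04, Nfkbib from −0.65 to −0.38). Nfkb2 lost its call in 6 and Relb in 5. The number of members called was 5 to 6 without 1 library in high glucose against control, 4 to 5 in AGEs against high glucose and 0 in AGEs against control, where DESeq2 called 1. All genes called in AGEs against control numbered 15, 325 with DESeq2, 5 with the replicate block and 10 to 21 without 1 library. In the 2 other comparisons they ranged from 5737 to 6133 and from 5975 to 6876 without 1 library. The replicate block changed no call of a member, and same-numbered libraries did not deviate together (r from −0.07 to 0.08). The values thus showed no sign of pairing by number, but they cannot show that the libraries were unpaired. Directions turned where the difference was small, and the cause was not tested. In AGEs against control, values without 1 library ran from −0.031 (control 1 left out) to 0.15 for Rela, from −0.0064 (control 1) to 0.13 for Nfkbib, from −0.12 (AGEs 3; −0.067 without control 2) to 0.27 for Nfkbie, from −0.0018 (AGEs 2) to 0.24 for Nfkbia, and from −0.39 to 0.17 (AGEs 3) for Tnfaip3. In AGEs against high glucose, Rel was −0.065 and Birc3 −0.11 with total counts only, −0.039 and −0.086 with limma on log2(FPKM + 1), −0.056 and −0.11 with limma on log2(FPKM + 0.1), and Birc3 ran from −0.045 (without AGEs library 3) to 0.20 (without AGEs library 1). Leaving out a library assumes that a group of 2 varies like the others. With at least 468 counts for each member in each library, the spread between libraries and not the depth limits these values.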
